A study of Rattus norvegicus with 32 samples.

Results

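The genes described here encode the proteins of the mitochondrial ribosome, chosen as every gene whose symbol in the deposited normalised table begins with Mrpl or Mrps followed by a digit. The rule found 72 of 12901 genes, 44 named for the large subunit and 28 for the small one. Of these, 70 passed the filter on low counts and were tested (42 large, 28 small), among 11594 genes tested in all. The other 2, Mrpl30 and Mrpl49, had means of 0.363 and 0.483 CPM (counts scaled to a common effective library size), and were at 0 in 6 and 4 of the 32 libraries.

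RNA of gastrocnemius muscle, a mixed but mostly fast-fibred calf muscle, came from male chow-fed rats, either control (labelled wild-type in the protocol) or lacking UCP1, the uncoupling protein of brown fat. There were 7 control libraries at room temperature (control_RT), 7 control libraries after 2 weeks at 4 °C (control_4C), 9 knockout libraries at room temperature (KO_RT) and 9 knockout libraries after 2 weeks at 4 °C (KO_4C), from rats aged 20 weeks. The labels give no strain, no room temperature in degrees and no account of how the knockout was made, and they leave unclear whether warm and cold samples shared animals, so a p-value measures the spread between these libraries. Libraries were QuantSeq libraries, which read the 3′ end of polyadenylated transcripts and count each transcript about once whatever its length.

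The mitochondrial ribosome translates the few mRNAs that mitochondrial DNA encodes, all of them for subunits of the respiratory chain and of ATP synthase. Its ribosomal RNAs are encoded in mitochondria, whereas every protein is encoded in the nucleus, made in the cytosol and imported. The small subunit binds the mRNA and reads codons, and the large subunit joins amino acids and feeds the new chain to the inner membrane. Skeletal muscle, with its high demand for oxidative ATP, is among the tissues affected when mutations impair this ribosome.

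Library totals ran from 7275508 to 25846976 counts (median 13065240). Skeletal muscle markers were high in every library, with sums of 100976 to 169249 CPM over 8 genes, as the labelled tissue would have. After cold, 4 of these 8 fell and 7 of 8 slow-fibre genes rose in control rats. In knockout rats 2 of 8 fell and 7 of 8 slow-fibre genes rose. Summed erythroid markers ranged over 227 to 753 CPM in warm and 379 to 3461 CPM in cold control muscle. In the knockout they ranged over 224 to 776 CPM warm and 509 to 1238 CPM cold. The cold medians were 556 CPM in control and 821 CPM in the knockout. Of 4 tested entries, 2 of them Hba-a2, 4 were called higher after cold in control and 0 in the knockout. Their changes in the knockout ran from 0.88 to 1.20, and 0 were called for a difference in cold response between the genotypes. Adipocyte markers ranged over 68.3 to 107 and 151 to 250 CPM in control, and over 76.4 to 181 and 190 to 246 CPM in the knockout. Of 5, 4 and 1 were called higher after cold, and 0 were called for a difference between these responses. Macrophage markers ranged over 43.7 to 68.7 and 63.4 to 120 CPM, and over 33.3 to 49.0 and 58.6 to 102 CPM (2 of 5 rose in each genotype). Intestinal epithelium markers, which muscle should lack, summed to 182 to 636 and 188 to 798 CPM in control, and to 190 to 322 and 153 to 234 CPM in the knockout. Of these 6 genes Fabp2 rose after cold in control rats (1.49 ± 0.45, adjusted p = 0.0187). All 6 lay below 0 for the knockout against control at 4 °C with none called (median -1.03), and the lowest adjusted p there was 0.0531, for Lgals4. A transcript-loss index, the mean log2 CPM of 80 genes that were low in the KO_RT library of column KO10, ranged from 3.75 to 5.49 in control_RT and from 5.83 to 6.18 in control_4C, so these groups did not overlap. It ranged from 3.58 to 6.05 in KO_RT and from 5.77 to 6.33 in KO_4C. The index also differed between the warm genotypes, with medians of 4.71 in control_RT and 5.87 in KO_RT, though their ranges overlapped. Its lowest value, 3.58, was that of column KO10, which the choice of genes made low. In bulk muscle, fewer cells of a type and less RNA per cell cannot be told apart, and the part that these markers and the index have in the results below was not tested except where a value is given. Ucp1 is not analysed here and gives no check on the genotype of a library.

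Promoters are shown for 4 members that carry the cold results described below. Mrpl42 and Mrps15 were lower after cold in both genotypes, and Mrpl14 and Mrpl45 had the smallest adjusted p-values among the members that rose in knockout muscle. The sequences are from RefSeq (rat assembly GRCr8), run 5′ to 3′ from 250 bases before to 30 bases after the annotated start of transcription, and capitals mark matches to the motifs named after them.
Mrpl42 (chr7:32028493-32028772, - strand): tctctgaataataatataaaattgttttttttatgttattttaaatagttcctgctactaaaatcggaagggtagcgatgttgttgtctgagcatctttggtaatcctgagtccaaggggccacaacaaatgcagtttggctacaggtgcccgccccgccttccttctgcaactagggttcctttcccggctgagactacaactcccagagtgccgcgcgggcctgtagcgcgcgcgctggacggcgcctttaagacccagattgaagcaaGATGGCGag
Mrps15 (chr5:143605891-143606170, + strand): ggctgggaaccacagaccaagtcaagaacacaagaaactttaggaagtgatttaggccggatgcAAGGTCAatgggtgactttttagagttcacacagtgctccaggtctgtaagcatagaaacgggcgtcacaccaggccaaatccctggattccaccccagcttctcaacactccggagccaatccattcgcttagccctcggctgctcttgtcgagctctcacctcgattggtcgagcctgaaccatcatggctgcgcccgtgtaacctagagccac
Mrpl14 (chr9:22811204-22811483, - strand): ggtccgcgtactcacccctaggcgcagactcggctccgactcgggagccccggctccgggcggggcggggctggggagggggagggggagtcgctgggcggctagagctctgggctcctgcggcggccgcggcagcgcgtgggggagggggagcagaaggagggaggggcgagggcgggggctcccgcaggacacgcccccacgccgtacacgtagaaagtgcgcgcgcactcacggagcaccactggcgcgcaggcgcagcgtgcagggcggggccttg
Mrpl45 (chr10:82804789-82805068, + strand): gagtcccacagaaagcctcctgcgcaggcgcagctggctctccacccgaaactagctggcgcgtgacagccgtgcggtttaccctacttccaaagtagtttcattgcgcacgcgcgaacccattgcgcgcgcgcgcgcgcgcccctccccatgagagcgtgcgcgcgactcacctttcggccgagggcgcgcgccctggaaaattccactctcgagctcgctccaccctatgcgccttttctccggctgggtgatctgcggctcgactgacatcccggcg

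A promoter was found for 58 members. On either strand, 17 of the 58 (29.3%) held the ETS-type run CCGGAAG, against 10.9% of 19005 protein-coding promoters. The run GCATGCG of nuclear respiratory factor NRF1, a regulator of many mitochondrial genes, stood in 6 (10.3% against 4.05%). The YY1 run GATGGCG stood in 5 (8.62% against 4.21%) and the run AAGGTCA, bound by oestrogen-related receptors, in 3 (5.17% against 3.53%). The search left Mrpl14 and Mrpl45 without a match, whereas Mrpl42 held the YY1 run and Mrps15 the AAGGTCA run. Of the 13 members that were lower after cold in control rats, 8 had a promoter and 7 of those held at least 1 of the 4 runs, against 26 of 58 members (44.8%) and 20.5% of all promoters. These are matches of letters and are given as a description, with no test.

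Across all libraries, transcripts of the large subunit were spread unevenly over its genes. Mrpl15, a core protein of the large subunit, averaged 707 CPM, Mrpl12, a stalk protein that contacts translation factors, 418 CPM, and Mrpl18, a protein of the central protuberance, 378 CPM. These 3 supplied 37.5% of the large-subunit sum. At the other end, Mrpl28 averaged 10.8 CPM, Mrpl1 1.68 CPM and Mrpl40 1.65 CPM among the tested members. In the small subunit the most abundant were Mrps36 (202 CPM), Mrps18b (200 CPM) and Mrps9 (187 CPM), which supplied 27.4% of its sum. The least abundant were Mrps22 (13.7 CPM), Mrps27 (8.03 CPM) and Mrps31 (1.68 CPM). RefSeq lists 2 pseudogenes each named for Mrpl15, Mrpl1 and Mrpl40, 3 for Mrps36 and 9 for the untested Mrpl30. It places Mrps9, Mrps31 and the untested Mrpl49 in overlap with another gene. Whether reads were lost or shared there was not tested, so such levels need not rank transcription. Mrps36 is named for the small subunit, although it is better known as a component of the 2-oxoglutarate dehydrogenase complex in mammals, and Mrps18a and Mrps30 sit in the large subunit of the mammalian mitochondrial ribosome.

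Summed over its genes, each subunit was lower in cold control muscle than in warm control muscle, and the groups overlapped in part. The large subunit ran from 3861 to 4681 CPM in control_RT (mean 4272 ± 293, SD, n = 7) and from 3409 to 4031 CPM in control_4C (3733 ± 236, n = 7). In knockout muscle it ran from 3648 to 4352 CPM at room temperature (3983 ± 264, n = 9) and from 3563 to 4566 CPM after cold (4041 ± 351, n = 9). For the small subunit the mean was 2241 ± 93.8 CPM in warm and 2006 ± 138 CPM in cold control muscle, and 2152 ± 94.1 CPM in warm and 2184 ± 178 CPM in cold knockout muscle. The cold libraries of the knockout thus spanned the range of the warm ones. The ratio of the small to the large sum had medians of 0.520 and 0.536 in warm and cold control muscle and of 0.549 and 0.545 in warm and cold knockout muscle, with SDs of 0.013 to 0.025.

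**Figure D1:**
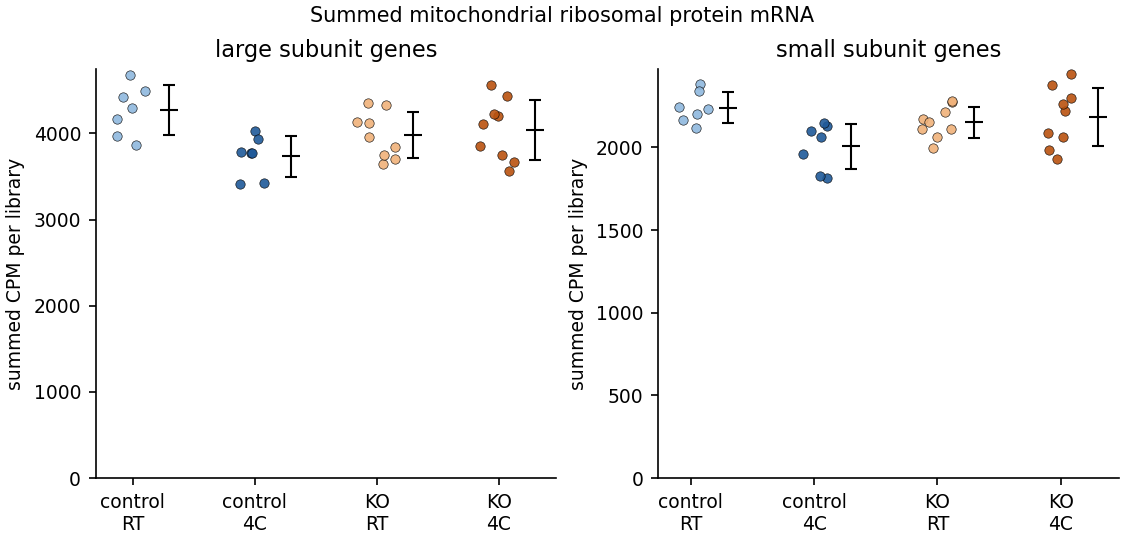
Summed CPM of large (left) and small (right) subunit genes in each library, by group; points are libraries, and the bar beside them is the mean with its SD. The control libraries after cold have the lowest mean and, for the large subunit, run from 3409 to 4031 CPM, within which several knockout libraries also lie; the highest library of each other group lies between 4352 and 4681 CPM.

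The first comparison asked how 2 weeks of cold changed these transcripts in control muscle. Of the 70 tested members, 13 fell and 1 rose (edgeR's quasi-likelihood test, Benjamini-Hochberg adjusted p under 0.05). Over all genes 8.28% were called lower and 12.4% higher. The falls comprised 9 of 42 large-subunit genes and 4 of 28 small-subunit genes, and the single rise was in the large subunit. Fitted log2 changes lay below 0 for 28 of 42 large-subunit genes (median -0.10) and 22 of 28 small-subunit genes (median -0.13), while the median of all genes was 0.03. The changes were small: the called falls ran from -0.26 to -0.67 on the log2 scale.

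Mrpl42, a large-subunit protein that bacterial ribosomes lack, had the lowest adjusted p. Its level was 60.9 to 72.7 CPM in control_RT (median 70.2) and 32.9 to 50.2 CPM in control_4C (median 44.5). Every cold control library therefore lay under every warm one. The change was -0.67 ± 0.09 (log2 ± SE, adjusted p = 8.88e-06), a 1.59-fold fall.

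Mrps11, a protein of the small-subunit platform, was 79.8 to 106 CPM in control_RT (median 93.0) and 58.1 to 72.3 CPM in control_4C (median 63.5). Its groups did not overlap either. The change was -0.53 ± 0.10 (adjusted p = 0.000343).

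Mrpl15, the most abundant member, went from 652 to 982 CPM in control_RT (median 809) to between 560 and 694 CPM in control_4C (median 615). The groups overlapped at their edges, and all 7 cold libraries lay below the warm mean. The change was -0.42 ± 0.09 (adjusted p = 0.00160).

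Mrpl16, which lies near the peptidyl transferase centre, fell by 0.41 ± 0.10 (adjusted p = 0.00384), and Mrpl48, of the central protuberance, fell by 0.43 ± 0.11 (adjusted p = 0.00424). Mrpl58, a peptidyl-tRNA hydrolase built into the large subunit, fell by 0.34 ± 0.09 (adjusted p = 0.00863). In each of these, every cold library lay below the mean of the warm ones. In the small subunit, Mrps15, Mrps24 and Mrps21 each fell by 0.27, with adjusted p-values of 0.00702, 0.0104 and 0.0109. Mrpl37, Mrpl27, Mrpl19 and Mrpl35 completed the 13, at -0.31, -0.42, -0.32 and -0.26.

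Mrpl10, which anchors the stalk to the large subunit, moved the other way. It was 31.9 to 46.7 CPM in control_RT (median 37.4) and 44.0 to 58.1 CPM in control_4C (median 49.1). Only the highest warm library reached into the cold range. The rise was 0.42 ± 0.11 (adjusted p = 0.00500). Mrpl12, its partner in the stalk, changed by -0.16 ± 0.12 (adjusted p = 0.368).

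Several of these calls moved with the loss index or with the libraries used. The index did not overlap between control_RT and control_4C, so a fit with it cannot tell cold from the index. With the loss index as a covariate, 3 members were lower and 0 higher, against 2.04% of all genes lower and 1.41% higher in the same fit. Of the 14 calls, 12 were lost; Mrpl42 and Mrps21 kept theirs and Mrps28 was added. The change of 7 of the 14 shrank by over 1.5 times, among them Mrpl15 (-0.13), Mrpl16 (-0.15), Mrpl58 (-0.14), Mrpl35 (-0.11) and Mrpl10 (0.11). Mrps15 stood at -0.28 (adjusted p = 0.0780) and Mrps11 at -0.40 (adjusted p = 0.0537). Without the 4 libraries lowest on the index (control_RT replicates 2 and 3, columns KO8 and KO10 of KO_RT), 13 of the 14 calls were kept. Mrpl58 was lost, while Mrpl55 and Mrps9 were added. Over all genes that fit called 7.12% lower and 9.79% higher. Without control_4C replicates 2 and 3, the lowest of their group in summed CPM, 7 members were lower, against 5.89% of all genes. This choice used the members' own sums, so it favoured fewer falls and is no independent check.

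In knockout muscle, 3 members rose and 2 fell after cold, against 7.49% of all genes higher and 6.28% lower. The 3 that rose, Mrpl14, Mrpl45 and Mrpl18, belong to the large subunit. The medians were 0.04 for each subunit and 0.01 for all genes, and they depended on the scaling and the libraries: for the large and small subunit they were 0.02 and 0.02 with RLE factors, 0.01 and 0.01 without the 4 libraries lowest on the loss index, and -0.02 and 0.01 with the index as a covariate.

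Mrpl14, a conserved protein at the interface between the subunits, had the lowest adjusted p. It was 116 to 142 CPM in KO_RT (median 125) and 143 to 179 CPM in KO_4C (median 165). All cold libraries lay above all warm ones, by a narrow margin. The rise was 0.35 ± 0.06 (adjusted p = 0.000141). In control muscle the same gene was 116 to 142 CPM warm and 132 to 163 CPM cold, which overlap.

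Mrpl45, which lies at the exit of the nascent chain and ties the ribosome to the inner membrane, was 117 to 150 CPM in KO_RT (median 121) and 134 to 177 CPM in KO_4C (median 148). The highest warm libraries overlapped the lower cold ones. It rose by 0.31 ± 0.07 (adjusted p = 0.00218). Mrpl18 rose by 0.29 ± 0.09 (adjusted p = 0.0271), from a median of 335 to 386 CPM, but the column KO17 of KO_RT stood at 447 CPM, above 5 of the 9 cold libraries. Its adjusted p passed 0.05 when any of 5 single libraries was left out (columns KO9 and KO13 of KO_RT and replicates 1, 7 and 8 of KO_4C), with 0.0802 as the highest.

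Mrps15, a small-subunit protein, was 96.1 to 105 CPM in KO_RT (median 99.5) and 74.7 to 87.8 CPM in KO_4C (median 83.4). The groups were apart, and each was narrow. It changed by -0.30 ± 0.06 (adjusted p = 0.00126). Mrpl42 changed by -0.33 ± 0.08 (adjusted p = 0.00508), from a median of 58.1 to 47.0 CPM. Mrps12, a protein of the decoding site, and Mrps23 were the next small-subunit members by p, at -0.26 ± 0.12 (adjusted p = 0.151) and -0.15 ± 0.07 (adjusted p = 0.166).

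**Figure D2:**
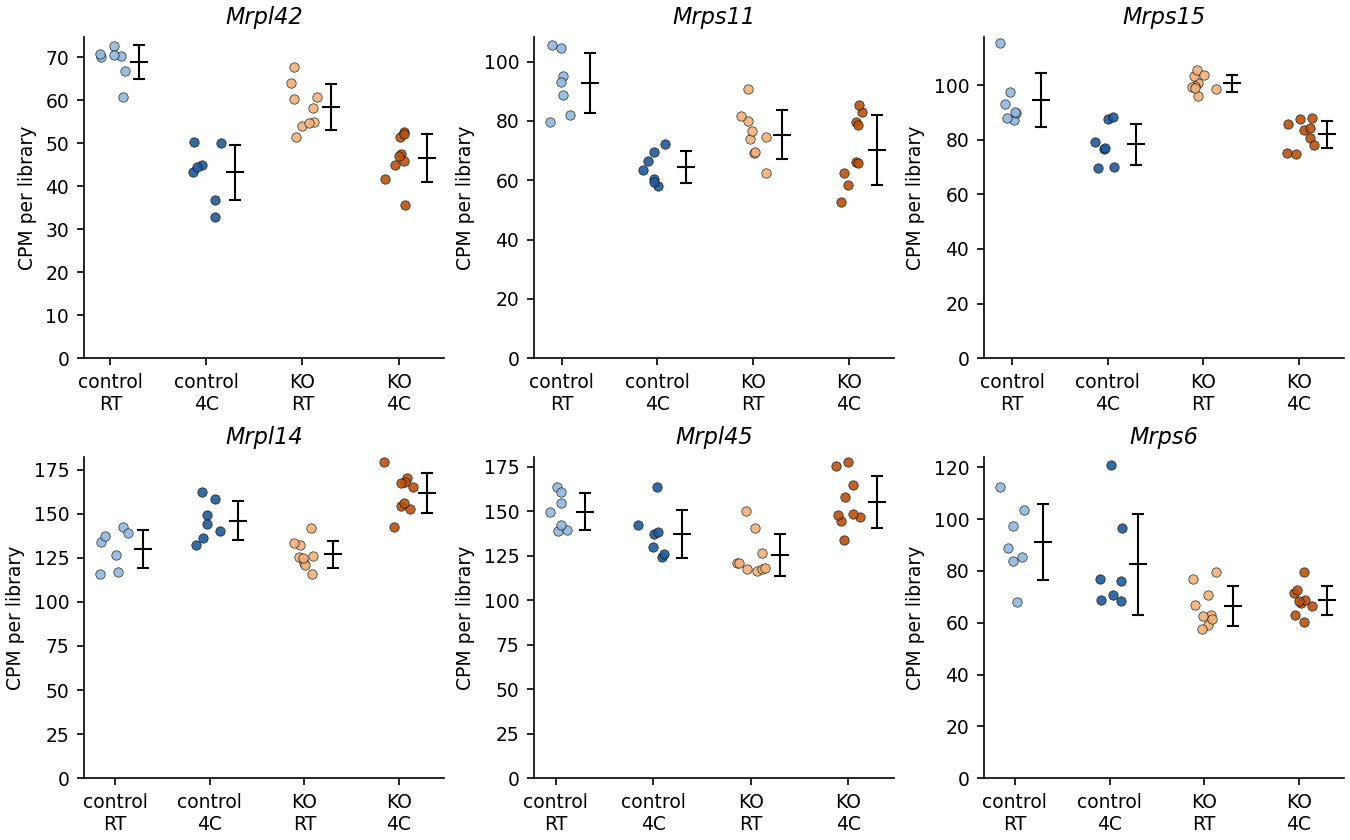
CPM in each library for 6 members, by group; points are libraries, and the bar beside them is the mean with its SD. Mrpl42 and Mrps11 do not overlap between warm and cold control libraries, and Mrps15 and Mrpl14 do not overlap between warm and cold knockout libraries.

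Set side by side, the cold comparisons of the genotypes use separate libraries. Mrpl42 and Mrps15 were called lower in both. The other 11 members called lower in control muscle were not called in knockout muscle, where 10 of the 13 had a fitted change below 0. Of the 70 tested members, 28 lay below 0 in both genotypes, 16 above 0 in both, 22 below 0 in control and above 0 in knockout, and 4 the other way.

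Whether the cold response differed between the genotypes was tested directly as an interaction (response in knockout minus response in control). No member passed with edgeR's quasi-likelihood test, 15 had an unadjusted p under 0.05, and DESeq2 called 1 higher, Mrpl45. Over all genes, edgeR called 0.00863% higher and 0.0173% lower, and DESeq2 0.198% higher and 0.768% lower. The fitted difference lay above 0 for 32 of 42 large-subunit genes (median 0.17) and 23 of 28 small-subunit genes (median 0.14), against a median of -0.02 for all genes.

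The lowest adjusted p was that of Mrpl45, at 0.43 ± 0.10 (adjusted p = 0.0877). Its median went from 150 to 137 CPM in control muscle and from 121 to 148 CPM in knockout muscle. Mrpl16 stood at 0.46 ± 0.14 (adjusted p = 0.142), Mrpl58 at 0.37 ± 0.12 (adjusted p = 0.180), Mrps11 at 0.42 ± 0.13 (adjusted p = 0.149), Mrps24 at 0.32 ± 0.10 (adjusted p = 0.151) and Mrps18b at 0.44 ± 0.17 (adjusted p = 0.250). None of these differences was shown at this threshold. Without the 4 libraries lowest on the loss index 3 members passed (Mrpl16, Mrpl45 and Mrps24), all higher, against 0.294% of all genes higher and 2.13% lower, and single libraries also decided the count: 3 without column KO8, 2 without column KO10 and 2 without control_RT replicate 4. Without control_4C replicates 2 and 3 none passed, and 9 had an unadjusted p under 0.05. Those libraries were chosen by the members' own low sums, which favours a smaller interaction.

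**Figure D3:**
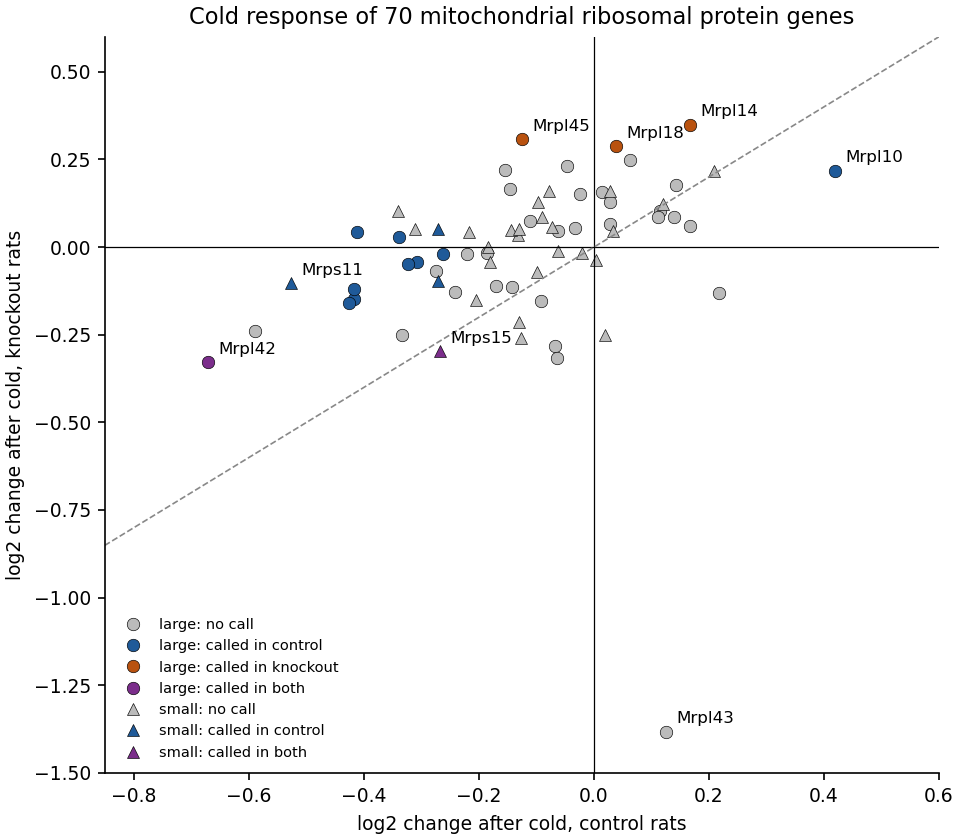
Fitted log2 change after cold in control rats (x axis) and in knockout rats (y axis) for 70 tested members; circles are large-subunit genes, triangles small-subunit genes, colour gives the comparison in which a member was called, and the dashed line marks equal changes. Most points, 55 of 70, lie above the line, and Mrpl43 at the bottom has a standard error of 1.16 in knockout rats.

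At room temperature, knockout and control muscle differed in 1 member, against 2.35% of all genes called higher and 0.259% lower in the knockout. Mrps6, a protein of the small subunit, was 67.9 to 113 CPM in control_RT (median 88.8) and 57.7 to 79.5 CPM in KO_RT (median 62.8). All 9 knockout libraries lay below the control mean, and the groups overlapped. The change was -0.46 ± 0.11 (adjusted p = 0.0162). With the loss index as a covariate it stood at -0.35 (adjusted p = 0.148). The index had a higher median in KO_RT than in control_RT, so its part was not told apart from that of the knockout. RefSeq places Mrps6 in overlap with Slc5a3, and reads from overlapping genes may not be told apart.

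The next members by p in that comparison were Mrpl17 at -0.26 ± 0.08 (adjusted p = 0.0511), Mrpl45 at -0.26 ± 0.07 (adjusted p = 0.0511), Mrps11 at -0.30 ± 0.09 (adjusted p = 0.0723) and Mrpl42 at -0.24 ± 0.09 (adjusted p = 0.132). Mrpl17 lies near the exit tunnel. The medians were -0.05 for each subunit against 0.00 for all genes. The count of 1 was not stable: it was 0 without control_RT replicate 2 or 3, and 2 to 5 without any of 15 other single libraries. These were columns KO8 and KO10 of KO_RT, replicates 1, 4, 6 and 7 of control_RT, replicates 1, 5, 6 and 7 of control_4C and replicates 1, 5, 6, 7 and 8 of KO_4C.

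After cold, no member differed between the genotypes by edgeR or DESeq2, 13 had an unadjusted p under 0.05, and edgeR called 0.0345% of all genes higher in the knockout and 0.0173% lower. DESeq2 called 0.457% higher and 3.26% lower. The fitted difference lay above 0 for 57 of 70 members, with medians of 0.11 (large) and 0.10 (small) against 0.02 for all genes. Without control_4C replicates 2 and 3, the medians were 0.06 and 0.04, 48 of 71 members lay above 0 and 5 had an unadjusted p under 0.05. That choice of libraries by the members' own low sums favours a smaller difference. The lowest adjusted p was that of Mrpl34, a large-subunit protein, which was 47.2 to 59.6 CPM in control_4C and 53.7 to 78.4 CPM in KO_4C. The difference was 0.25 ± 0.08 (adjusted p = 0.0998). Mrpl13 stood at 0.28 ± 0.10 (adjusted p = 0.114) and Mrpl38 at 0.39 ± 0.14 (adjusted p = 0.135). Mrps9 stood at 0.30 ± 0.12 (adjusted p = 0.206). Mrps6 lay at -0.27, on the same side as at room temperature. This comparison shares its control_4C libraries with the cold comparison in control rats, so the 2 are not independent.

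Mrps18a, Mrps18b and Mrps18c are paralogues, and the protein of Mrps18a sits in the large subunit. Mrps18b was the most abundant, at 172 to 218 CPM as group means, followed by Mrps18c at 97.6 to 113 CPM and Mrps18a at 33.8 to 37.1 CPM. The lowest Mrps18b library, at 143 CPM, lay above the highest Mrps18c library, at 133 CPM. None of the 3 passed in any comparison in the main fit, edgeR's quasi-likelihood test without a replicate block. DESeq2 called Mrps18b and Mrps18c lower after cold in control rats, as did edgeR's test with a replicate block. After cold in control rats they stood at -0.34 ± 0.13 (b, adjusted p = 0.0550), -0.22 ± 0.09 (c, adjusted p = 0.0707) and -0.13 ± 0.10 (a, adjusted p = 0.363). Mrps30 and Mrps36 had adjusted p-values of 0.423 or higher in every comparison.

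Mrpl43, a large-subunit protein, stood apart from all other members in its spread, and it was singled out after its values were seen. In 14 of the 32 libraries it lay between 0 and 1.82 CPM, and in the other 18 between 81.7 and 235 CPM, with none between. Low libraries occurred in every group: 3 of 7 in control_RT, 2 of 7 in control_4C, 3 of 9 in KO_RT and 6 of 9 in KO_4C. The highest value, 235 CPM, was that of column KO10, and the next highest was 124 CPM in control_RT replicate 6. As raw counts the low libraries held 0 to 26 and the high ones 994 to 3794.

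Among 4156 genes with a mean of at least 20 CPM, Mrpl43 had the highest SD of log2(CPM + 0.5) over the libraries, at 3.25. The next gene had 3.18, and among the 59 members in that range the next was Mrpl33 at 0.33 and the median was 0.20. No comparison called Mrpl43; its change after cold in knockout rats was -1.38 ± 1.16 (adjusted p = 0.481). Leaving it out of the large-subunit sum gave means of 4210 and 3665 CPM for warm and cold control muscle and 3902 and 4010 CPM for warm and cold knockout muscle. RefSeq places Mrpl43 in overlap with Twnk, the gene of the helicase that unwinds mitochondrial DNA. Twnk lay between 52.5 and 81.7 CPM in the 14 libraries low in Mrpl43, and between 28.6 and 64.7 CPM in the 18 high ones. It thus tended to be higher where Mrpl43 was low, with overlap. Whether the genes share reads was not tested.

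**Figure D4:**
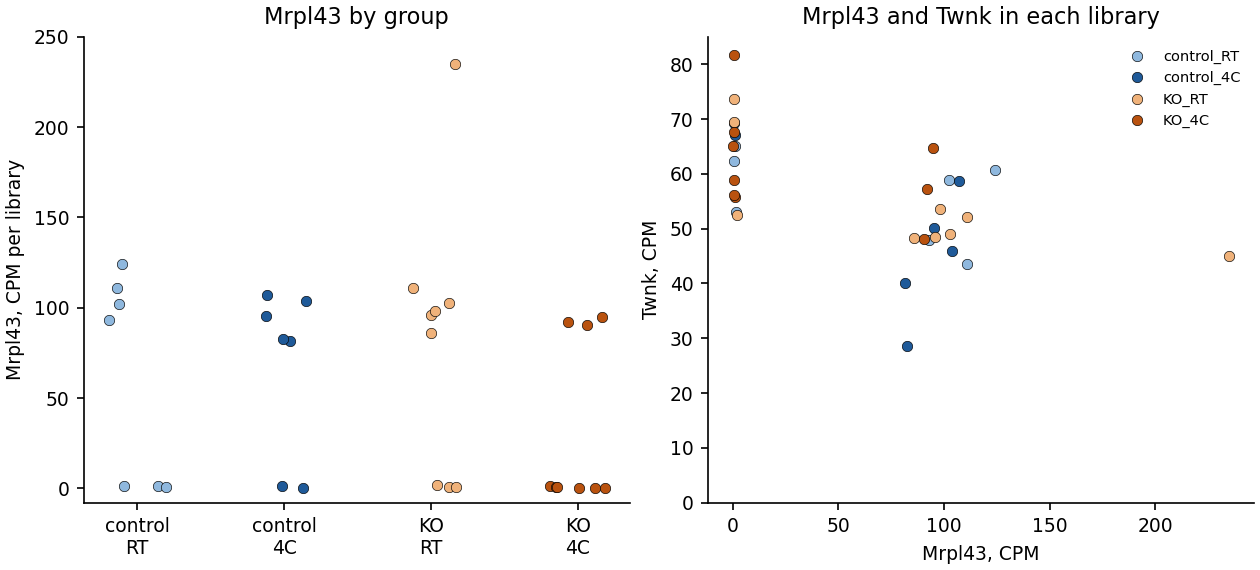
Mrpl43 CPM in each library by group (left) and against Twnk CPM in the same library (right); points are libraries. Mrpl43 lies at 0 to 1.82 CPM in 14 libraries and at 81.7 to 235 CPM in 18, and each group holds both kinds. Twnk runs from 52.5 to 81.7 CPM in the 14 and from 28.6 to 64.7 CPM in the 18.

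The proteins of the ribosome that carry other symbols, and the genes that assemble and run it, were counted from lists. Of 5 ribosomal proteins with other symbols, Gadd45gip1 (a large-subunit protein) was lower after cold in control rats, at -0.51 ± 0.09 (adjusted p = 0.000294), and Dap3 (a GTP-binding small-subunit protein) was higher after cold in knockout rats, at 0.35 ± 0.09 (adjusted p = 0.0101). The symbols mrpl9, mrpl11 and mrpl24, written in lower case in the table, fall outside the rule. Of these, mrpl9 was lower after cold in control rats, at -0.54 ± 0.18 (adjusted p = 0.0320).

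Of 25 assembly genes tested, 4 rose and 2 fell after cold in control rats, against 12.4% and 8.28% of all genes. Mterf3, which acts in ribosome biogenesis, averaged 1.21 ± 0.782 CPM in warm and 3.41 ± 0.905 CPM in cold control muscle (SD, n = 7), and the change was 1.47 ± 0.32 (adjusted p = 0.00125). Gtpbp10, a GTPase of large-subunit maturation, rose by 0.63 ± 0.17 (adjusted p = 0.00666). The GTPase gene Mtg2 stood at -0.33 ± 0.09 (adjusted p = 0.0109). At room temperature 3 of the 25 were higher in the knockout and none was lower, against 2.35% and 0.259% of all genes. They were Mterf3 (1.53 ± 0.31), Gtpbp10 (0.58 ± 0.16) and Rpusd4 (0.72 ± 0.20). This comparison shares the control_RT libraries with the preceding one. In knockout rats 1 rose after cold, against 7.49% of all genes. It was Ngrn, a 16S rRNA assembly factor, at 0.39 ± 0.08 (adjusted p = 0.00114).

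Among 14 translation factors, Gfm1, the elongation factor that moves the ribosome along the mRNA, rose after cold in control rats by 0.99 ± 0.24 (adjusted p = 0.00354), from 25.1 ± 6.68 to 49.9 ± 9.66 CPM. It was also higher in the warm knockout, at 55.2 ± 24.5 CPM (1.14 ± 0.23, adjusted p = 0.0106). Tufm, which delivers aminoacyl-tRNA, changed by -0.34 ± 0.10 after cold in control rats (adjusted p = 0.0110). Of 22 genes for charging tRNA, 1 rose and 1 fell after cold in control rats, 0 rose and 1 fell (Iars2, -0.54 ± 0.11, adjusted p = 0.000920) in knockout rats, and Aars2 was higher in the warm knockout (0.47 ± 0.13, adjusted p = 0.0360). Of 8 genes of mitochondrial transcription and replication, 4 rose and 0 fell after cold in control rats (Mterf2, Tefm, Tfb2m and Mterf1). In knockout rats Mterf2 rose by 0.57 ± 0.17 while Polg stood at -0.62 ± 0.21. Over all genes, 12.4% were called higher and 8.28% lower after cold in control rats, and 7.49% and 6.28% in knockout rats. For the warm knockout these shares were 2.35% and 0.259%.

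These lists moved with the loss index, whose part cannot be told apart from that of cold in control rats. The index also had a higher median in KO_RT (5.87) than in control_RT (4.71), and its part in the warm knockout was not told apart either. With it as a covariate, none of the 14 calls in the assembly, factor, tRNA and transcription lists after cold in control rats was kept, and 5 of them changed sign (Tefm, Tfb2m, Mterf1, Tfb1m and Rpusd4). Gfm1 then stood at 0.03 and Mterf3 at 0.59. None of the 5 calls in the warm knockout was kept either, with Gfm1 at 0.48 and Mterf3 at 1.02. Over all genes the calls in that comparison went from 273 higher and 30 lower to 5 and 1. Of the 4 calls in the cold knockout, Ngrn and Iars2 were kept. Among the ribosomal proteins with other symbols, Gadd45gip1 and Dap3 kept their calls, and mrpl9 lost its own. Single libraries also decided some of these calls. After cold in control rats, mrpl9 lost its call without any of 4 single libraries (control_RT replicates 2 and 6, control_4C replicates 3 and 5), Mterf1 without any of 7, Rpusd4 without any of 3 and Tfb2m without 1 (control_RT replicate 2). Polg lost its call in the cold knockout without any of 10 single libraries, and Gtpbp10, Rpusd4 and Aars2 theirs in the warm knockout without any of 9, 21 and 11.

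The mRNAs that this ribosome translates were also lower after cold. Summed over 12 genes of mitochondrial DNA they averaged 116009 ± 9467 CPM in warm and 81126 ± 13151 CPM in cold control muscle, and 113730 ± 11566 CPM in warm and 95461 ± 15911 CPM in cold knockout muscle. Of the 12, 9 fell and 0 rose in control rats (median -0.60), and 6 fell and 0 rose in knockout rats (median -0.31). With the loss index as a covariate 8 of the 9 and all 6 kept their calls. Of 70 tested genes of the cytosolic ribosome, 8 rose and 2 fell in control rats (median 0.00), and 1 rose and 1 fell in knockout rats. Over all genes 12.4% were called higher and 8.28% lower in control rats, and 7.49% and 6.28% in knockout rats. The cytosolic rises in control rats thus lay near the share of all genes. Leaving all counts of the mitochondrial genome out of the fit moved the medians of the members after cold in control rats to -0.11 (large) and -0.14 (small).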

How the data were processed

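The authors deposited raw read counts by Ensembl gene for 32 libraries. They also deposited the same values over 1 size factor per library (0.523 to 2.06) as a normalised signal, used here for its gene symbols. Per the submitters' processing notes, R 3.4.3, DESeq2 1.18.1 and the build Rnor_6.0 were used; the aligner and counter are not stated there. Every deposited count was even. No 2 libraries of a group agreed within sampling noise (smallest chi-square per degree of freedom 5.70). The KO_RT descriptions number the samples differently from the titles, so these libraries are named by column, and columns KO8 and KO9, which match both a title and another sample's description, carry no replicate number.

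Counts were scaled by TMM, filtered with filterByExpr (minimum count 10) and fitted with edgeR 4.0.16 (R 4.3.3) by the robust quasi-likelihood method, with 4 group means over all libraries. P-values were adjusted by Benjamini-Hochberg over all 11594 genes tested, and the threshold was 0.05. Standard errors are the log2 change divided by the root of the F statistic. The fit was tested on simulated data. DESeq2 1.42.0, RLE factors, TMM without the 20 most abundant genes, no filter, counts divided by 2, fits of only the groups compared, a replicate block, a 0.01 threshold and leaving out libraries were alternatives. If reads were counted doubly, which the files do not show, sampling error is larger than the counts imply.

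The members, lists and tests were chosen with earlier results of these data known. Members were named where they were among the 5 of smallest p per subunit and direction past the threshold, or, with fewer than 3 past it, among the 3 of smallest p, and for the 3 highest and 3 lowest means per subunit. Mrpl12, Mrpl58, Mrps12, Mrps18a, Mrps18b, Mrps18c, Mrps30 and Mrps36 were always looked up. Of the members, 70 had an entry in RefSeq (GRCr8), 22 have a pseudogene of their name there, Mrpl42, Mrpl15, Mrpl17, Mrpl45, Mrpl37, Mrps11 and Mrps21 among them, and 18 overlap another gene, Mrpl10, Mrpl14, Mrpl16, Mrpl27, Mrpl37, Mrpl43, Mrpl48 and Mrps6 among them. Reads of such genes could be split or shared, and those levels are uncertain to that extent. Whether counting used strand is not stated.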

Additional observations from a re-analysis of the deposited data

Results flagged for a closer look

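Dixon's test at the 95% level was run in 144 sets of libraries. Each set was a named member, a subunit sum or the ratio of the sums, in a group. In 8 sets, all of a member, a library lay far above the rest. Chance gives about 1 in 20, so 8 is near the number that chance would give. Mrps12 stood at 162 CPM in column KO8 of KO_RT, with the next library at 85.7 CPM. The same column held Mrps24 at 108 CPM, with the next at 89.2 CPM. In KO_RT, Mrpl18 was 447 CPM in column KO17 (next 348 CPM), Mrpl58 was 69.3 CPM in column KO10 (next 58.5 CPM) and Mrpl1 was 2.82 CPM in column KO9 (next 1.96 CPM). Mrps15 was 115 CPM in control_RT replicate 6 (next 97.5 CPM), Mrps22 was 15.6 CPM in control_4C replicate 4 (next 13.1 CPM) and Mrps24 was 102 CPM in KO_4C replicate 1 (next 93.2 CPM).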

How the results depend on the processing

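No called member and no count of members changed direction in any alternative run. With the loss index as a covariate, 5 list genes called after cold in control rats did: Tefm (-0.33), Tfb2m (-0.15), Mterf1 (-0.99), Tfb1m (-0.018) and Rpusd4 (-0.092). The median of the large subunit after cold in knockout rats, 0.04, was -0.02 with the index, and the median of all genes in the warm knockout, 0.00, was -0.00 with RLE factors. For the warm knockout, 1 member was called lower, against 0.259% of all genes. The count was 3 with RLE factors (0.336% of all genes lower), TMM without the 20 most abundant genes (0.328%) and counts divided by 2 (0.522%). It was also 3 without the 4 libraries lowest on the loss index (1.01%) and without mitochondrial genome counts (0.362%). It was 4 with DESeq2 (0.906%). With only the groups compared and at a threshold of 0.01 it was 0, as it was for all genes (0%). It was also 0 with the index as a covariate (0.00863%). The count of higher members was 1 without the 4 libraries, against 4.95% of all genes higher. For cold in control rats, the 13 lower members (8.28% of all genes) became 7 at 0.01 (3.91%) and 3 with the index (2.04%). They became 7 without control_4C replicates 2 and 3 (5.89%). The 1 higher became 0 with the index, against 1.41% of all genes higher. For the interaction, 0 higher members became 1 with DESeq2 (0.198% of all genes) and 3 without the 4 libraries (0.294%). The cause of these moves was not tested.

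Leaving out each library in turn gave 11 to 18 lower members after cold in control rats, 2 to 4 higher and 2 to 3 lower in knockout rats, 0 to 5 lower and 0 to 1 higher in the warm knockout, and 0 to 3 higher in the interaction. Mrps6 lost its call without control_RT replicate 2 or 3, Mrpl19 without control_RT replicate 5 or control_4C replicate 3 or 7, and Mrpl35 without control_RT replicate 3 or 6 or control_4C replicate 3. Of 4375 further values (single genes and counts per subunit, each under an alternative), 4039 kept their direction and side of the threshold or stayed within 1.5 times, 219 lost a call, 53 gained a call and 59 counts moved further. Over all genes, the split of knockout against control at 4 °C, 4 higher and 2 lower, was 11 and 110 with RLE factors and 53 and 378 with DESeq2.

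Replicate numbers gave no clear pairing of the samples, although so few pairs cannot exclude one. Those of KO_RT rest on matching columns to titles, which number the samples differently from the descriptions, so its pairs may be wrong. Correlations of same-numbered libraries ran from -0.22 to 0.19 between warm and cold control, -0.00 to 0.15 between warm and cold knockout, -0.12 to 0.18 between the warm groups and -0.07 to 0.22 between the cold groups. They were over 0.1 in 1 of 7, 2 of 7, 3 of 5 and 3 of 7 pairs, and the best match was the same number in 1, 2, 2 and 3 of them. The replicate block joined same-numbered libraries of all groups, although control and knockout rats are different animals. With the block, 20 members passed after cold in control rats (including all 14 called without it), 5 in knockout rats and 1 in the warm knockout. Over all genes the block called 14.6% higher and 10.6% lower after cold in control rats, against 12.4% and 8.28% without it. It called 7.38% and 5.12% in knockout rats, and 1.71% and 0.19% in the warm knockout. The index covariate, the run without control_4C replicates 2 and 3 and the run without mitochondrial genome counts were chosen after seeing the data; an earlier definition of the index was not held, so it was rebuilt here.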
